A study of Arabidopsis thaliana with 6 samples.

Results

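The anion channels described here are the slow-type channel gene *SLAC1* (AT1G12480), its homologues *SLAH1* (AT1G62280), *SLAH2* (AT4G27970), *SLAH3* (AT5G24030) and *SLAH4* (AT1G62262), and 4 genes of the aluminium-activated malate transporter family, *ALMT4* (AT1G25480), *ALMT6* (AT2G17470), *ALMT9* (AT3G18440) and *ALMT12* (AT4G17970). Their probes were all probes, apart from control spots, whose identifiers led to 1 of these 9 loci. This gave 10 of 43603 probes on the array and 9 of the 25410 loci with a matched probe. *ALMT9* had 2 probes and each of the other genes had 1. *SLAC1*, *SLAH1*, *SLAH4* and *ALMT4* lie on chromosome 1, *ALMT6* on chromosome 2, *ALMT9* on chromosome 3, *SLAH2* and *ALMT12* on chromosome 4 and *SLAH3* on chromosome 5. *SLAH4* and *SLAH1* are close neighbours, with 1 protein-coding gene (AT1G62270) annotated between them.

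RNA was taken from guard cell protoplasts (GCPs), guard cells freed of their walls by enzymes, of *Arabidopsis thaliana* Columbia plants that all carried the recessive *gl1* allele, which removes leaf hairs, in both copies. SS plants had 5 weeks of an 8-h day at a light intensity of 100 µmol m-2 s-1. SL plants had 3 weeks of that day and then 2 weeks of a 16-h day at 41 µmol m-2 s-1, so that day length and light intensity cannot be told apart. The labels place the isolation at zeitgeber time (ZT, hours after lights on) 8 for SS and 16 for SL. The methods text places both groups at the later of these times. If the labels are right, time of day cannot be told apart from day length either. Each group had 3 samples, numbered 1 to 3, and the paper describes 3 independent experiments. The sample titles give only the number, and same-numbered SS and SL samples were treated as pairs.

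Guard cells close the stomatal pore by releasing anions and potassium, and open it by accumulating them in the vacuole. Slow-type channels such as SLAC1 and SLAH3, and the rapid-type channel ALMT12, let chloride, nitrate or malate out through the plasma membrane, and kinases and phosphatases of abscisic acid and CO2 signalling switch them. ALMT4, ALMT6 and ALMT9 sit in the vacuolar membrane and carry malate or chloride between vacuole and cytosol.

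The share of probes well above background was between 65.3% and 70.7% per array, with 0 saturated spots. Signals were corrected for background with an offset of 50, quantile normalized and tested on the log2 scale with *limma*, and p values were adjusted over the 28852 probes that passed a filter on dim signals (well above background in every array of SS, of SL, or of both). Over all of these, 0 probes (0%) had an adjusted p below 0.05 without the replicate number in the model. Unadjusted, 1185 (4.11%) were below it. With the replicate number as a block, 1282 (4.44%) were called, of which 902 (3.13%) were lower and 380 (1.32%) higher in SL. Slide 1 carried the SS and SL arrays of replicate 1, and slide 2 carried the SS and SL arrays of replicates 2 and 3. All 9 genes listed as guard cell markers passed the filter, among them *MYB60*, *FAMA*, *KAT1* and *GORK*. The summed signal of all 9 was between 120600 and 167800 in SS and between 128300 and 137800 in SL. Most of this sum came from *TGG1* and *CYP86A2*, so that it says little about the other markers. The summed signal of 5 photosynthesis genes that mesophyll cells also express was 108500, 57660 and 121000 in SS and 61610, 29530 and 59670 in SL for replicates 1, 2 and 3, which is lower in SL in each pair. Of these, *LHCB1.3*, *RBCS1A* and *RBCS2B* were called lower in SL with the block, and *CA1* and *GLDP1* were higher in SL in 3 of 3 pairs without being called. The summed signal of 3 epidermis markers, mostly from *FDH*, was between 6543 and 16010 in SS and between 6686 and 9921 in SL. That of 2 phloem markers, mostly from *SUC2*, was between 554.4 and 731.3 in SS and between 559.2 and 740.9 in SL. Of these 5 genes, 0 were called. As the RNA came from many cells, fewer cells of a type and less RNA per cell cannot be told apart in any of the values below.

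No anion channel gene was called between SL and SS. Of the 10 channel probes, 8 were tested, covering 7 of the 9 genes, and 0 of these had an adjusted p below 0.05 with *limma*, either without the block (0% of all probes) or with it (4.44% of all probes). Unadjusted, 0 were below 0.05 without the block (4.11% of all probes) and 2 with it (24.1% of all probes), those of *ALMT12* and *ALMT4*. *ALMT12* was lower in SL in 3 of 3 pairs, with a mean SL/SS ratio of 0.772, and *ALMT4* was higher in 3 of 3, with a mean ratio of 1.22. Over the 8 probes, 2 moved the same way in all 3 pairs, against 13484 (46.7%) of all probes. The other 5 tested genes had pairs in both directions. Probes of *SLAH1* and *SLAH4* were not well above background on any array.

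**Figure D1:**
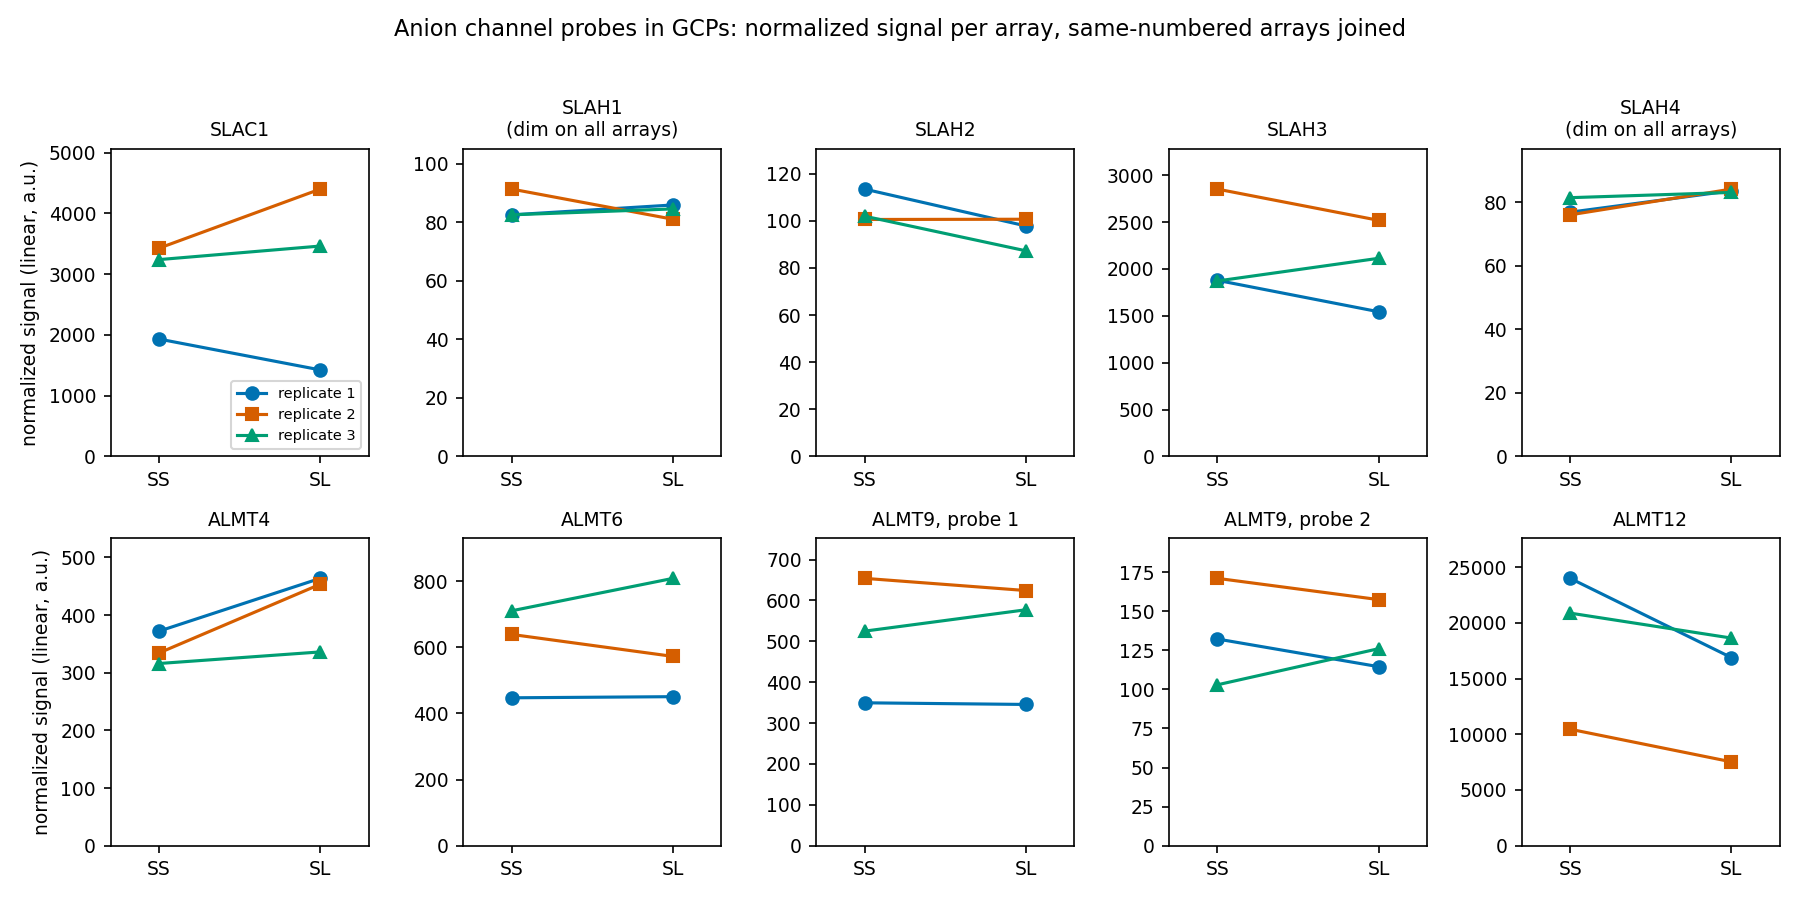
Normalized signal (linear scale, arbitrary units, axes starting at 0) of the 10 channel probes in the 3 SS and 3 SL arrays, with lines joining the arrays of 1 replicate number. The range over the replicate numbers is wider than the group difference at 8 of 8 tested probes, as for 86.9% of all probes. Of the tested probes, only those of *ALMT4* and *ALMT12* have all 3 lines running the same way.

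*SLAC1* encodes the slow-type anion channel through which guard cells lose anions during closure. Its normalized signal was 1931, 3426 and 3238 in SS and 1423, 4398 and 3461 in SL, for replicates 1, 2 and 3. The groups overlapped, and in both groups replicate 1 was the lowest array by a wide margin. The SL/SS ratio was 0.737, 1.28 and 1.07 in the pairs of replicates 1, 2 and 3, with a mean of 1.03 ± 0.276 (SD, n = 3 pairs). The log2 difference was 0.005 (SE 0.45 without the block and 0.16 with it, adjusted p from *limma* 0.9999 and 0.987). The 95% interval of the ratio ran from 0.477 to 2.11 without the block and from 0.771 to 1.31 with it. On slide 1, which held the pair of replicate 1, SL was the lower array, and over the pairs of slide 2 the log2 difference was 0.23 (SE 0.13, adjusted p from *limma* with the block 0.46).

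*SLAH3* encodes a second slow-type channel of guard cells, which conducts nitrate as well as chloride. Its signal was 1878, 2851 and 1871 in SS and 1543, 2518 and 2113 in SL. Replicate 2 was the highest array of both groups, and the groups overlapped. The mean SL/SS ratio was 0.945 ± 0.163 (SD, n = 3 pairs), with SL lower in 2 of 3 pairs and higher in that of replicate 3. The log2 difference was -0.10 (SE 0.25, and 0.11 with the block, adjusted p from *limma* with the block 0.639), and the 95% interval of the ratio with the block was 0.775 to 1.13. Over the pairs of slide 2 alone, the log2 difference was -0.002 (SE 0.14).

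*SLAH2*, *SLAH1* and *SLAH4* are best known from roots, where SLAH2 conducts nitrate and SLAH1 modulates SLAH3. The *SLAH2* probe was well above background on 3 of 3 SS arrays and on 1 of 3 SL arrays, so that it entered the test through SS alone. Its signal was 113.5, 100.6 and 102 in SS and 97.9, 100.7 and 87.3 in SL. All these values are close to the offset of 50 and the groups overlapped by a narrow margin, at SL replicate 2. The log2 difference was -0.15 (SE 0.13, and 0.09 with the block, adjusted p from *limma* with the block 0.369). Its size depended on the background correction, and with the scanner's own processed signal, scaled to the 75th percentile, it was -0.63, with SL lower in 3 of 3 pairs and groups that did not overlap, as for 9.42% of all probes in that setting (adjusted p from *limma* with the block 0.136). With normexp scaled to that percentile it was 0.030.

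The *SLAH1* probe had a median pixel intensity between 53 and 73 over the 6 arrays, above the median of the negative control spots of its array on 6 of 6 arrays but above their 95th percentile on only 3. That of *SLAH4* was between 48 and 75, above the negative control median on 4 arrays and above the 95th percentile on 3. The *SLAH4* spot was flagged as significantly above its background on 0 of 6 arrays, and that of *SLAH1* on 4. Both were therefore not well above background in either group, and no fold change is given. After normalization, the *SLAH1* signal was 82.5, 91.3 and 82.5 in SS and 85.9, 81.0 and 84.6 in SL, and that of *SLAH4* was 76.9, 76.1 and 81.5 in SS and 83.6, 84.2 and 83.1 in SL.

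*ALMT12*, also called QUAC1, encodes the rapid-type anion channel of the guard cell plasma membrane, which opens in the presence of malate. Its signal was 23990, 10450 and 20870 in SS and 16880, 7523 and 18630 in SL for replicates 1, 2 and 3. Replicate 2 was the lowest array of both groups, and SS replicate 2 lay below SL replicates 1 and 3, so that the groups overlapped although SL was lower within each pair. The pair ratios were 0.704, 0.72 and 0.893, with a mean of 0.772 ± 0.105 (SD, n = 3 pairs). SL was lower in all 3 pairs for 6821 of the 28852 probes (23.6%), so that 1 of 8 channel probes is not above the share over all probes. An exact two-sided permutation test gave p = 0.5 over the arrays and p = 0.25 over the pairs, the latter being the smallest that 3 pairs allow.

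The log2 difference of *ALMT12* was -0.38. Without the block its SE was 0.45 (adjusted p from *limma* 0.9997), and with the block 0.10 (unadjusted p 0.00876, adjusted p from *limma* 0.0912). With the block, the 95% interval of the ratio was 0.648 to 0.91, not adjusted for the number of probes. Which side of the threshold it took depended on the pair of replicate 3, whose ratio was the closest to 1. Without that pair the difference was -0.49 and passed the threshold (adjusted p from *limma* with the block 0.0329). In that setting 2459 of the 28852 probes were called, against 1282 with all pairs. Leaving out the pair of replicate 1 or 2 gave an adjusted p of 0.332 or 0.334, with 135 and 0 probes called. Scaled to the 75th percentile, the difference was -0.22 with the processed signal, where SL was the higher array in the pair of replicate 3, and -0.26 with normexp, and with quantile normalization in its other forms it was between -0.40 and -0.38. Without SL replicate 2 and without the block, which leaves the replicate numbers unbalanced between the groups, the difference turned to 0.031. The summed signal of the 5 photosynthesis genes given above was likewise lowest in replicate 2 of both groups and lower in SL in each pair. Within this list, *CA1* and *GLDP1* were higher in SL in all 3 pairs. Of the 9 guard cell markers, 3 were lower and 0 higher in SL in all 3 pairs (4395 and 4421 of all 18001 tested genes). With the block, 0 of the 9 were called (4.66% of all tested genes). The part of either list in the *ALMT12* difference was not tested.

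None of the vacuolar channel genes was called. *ALMT6* encodes a malate channel of the guard cell vacuole that calcium activates. Its signal was 447, 638.5 and 710.1 in SS and 450.4, 572.1 and 808.1 in SL, so that the arrays of a pair lay side by side and replicate 1 was the lowest in both groups. The mean SL/SS ratio was 1.01 ± 0.121 (SD, n = 3 pairs) and the log2 difference 0.013 (SE 0.27, and 0.10 with the block, adjusted p from *limma* with the block 0.951). The 95% interval of the ratio with the block was 0.856 to 1.19.

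*ALMT9* encodes a vacuolar chloride channel that contributes to stomatal opening. At its brighter probe, A_84_P235223, the signal was 349.5, 654 and 524.8 in SS and 345.5, 624.2 and 577.1 in SL. At the other, A_84_P846163, it was 132, 171 and 102.9 in SS and 114.5, 157.4 and 126 in SL. At both probes replicate 2 was the highest array of each group, whereas the lowest was replicate 1 at the brighter probe, and SS replicate 3 and SL replicate 1 at the other. The mean pair ratios were 1.01 ± 0.0759 and 1.00 ± 0.193 (SD, n = 3 pairs), with log2 differences of 0.018 and -0.011 (SE with the block 0.09 and 0.12, adjusted p from *limma* with the block 0.923 and 0.965). At both, SL was lower in 2 of 3 pairs and higher in that of replicate 3, and the 95% intervals of the ratio with the block were 0.875 to 1.17 and 0.813 to 1.21.

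*ALMT4* encodes a vacuolar malate channel that takes part in closure in response to abscisic acid. Its signal was 372, 334 and 316 in SS and 464, 453 and 336 in SL. SL replicates 1 and 2 lay above each SS array, but SL replicate 3 lay below SS replicate 1, so that the groups overlapped. The pair ratios were 1.25, 1.36 and 1.06, with a mean of 1.22 ± 0.148 (SD, n = 3 pairs). SL was higher in all 3 pairs for 6663 of all tested probes (23.1%). The log2 difference was 0.28 (SE 0.17, and 0.10 with the block, unadjusted p 0.141 and 0.0278, adjusted p from *limma* 0.9997 and 0.158), and the exact two-sided permutation test gave p = 0.2 over the arrays and p = 0.25 over the pairs. With the block, the 95% interval of the ratio was 1.03 to 1.44, not adjusted for the number of probes. It was higher in SL in 3 of 3 pairs under each other normalization tried, with a log2 difference between 0.28 and 0.44, and the lowest adjusted p over all settings was 0.0674, in the blocked fit that left out the pair of replicate 3.

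**Figure D2:**
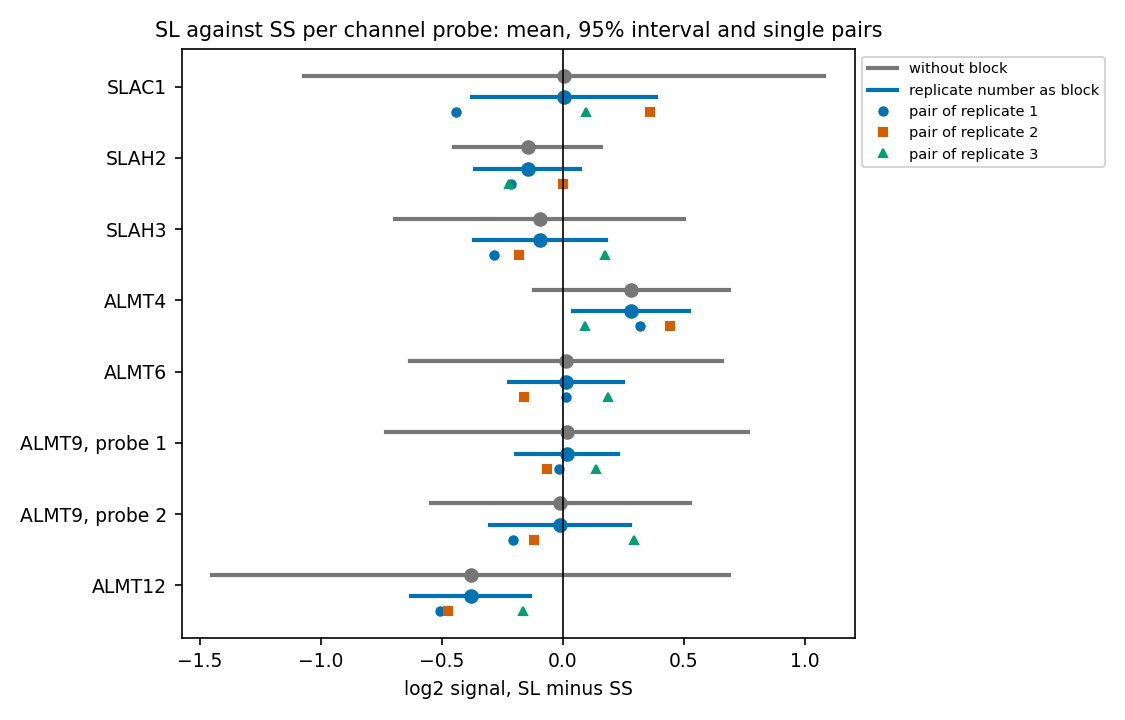
Log2 difference, SL minus SS, of the 8 channel probes tested, with the 95% interval from *limma* without the block (grey) and with the replicate number as a block (blue), and the 3 single pairs below them. Each interval without the block includes 0; with the block, those of *ALMT4* and *ALMT12* do not, before adjustment over all probes.

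The spread over the replicate numbers was set beside the group difference at each channel probe. A range over 3 means tends to exceed a difference of 2 means even with no batch effect. The comparison is therefore a description and does not show which of them differed more. The range of the mean log2 signal over the 3 replicate numbers was wider than the SL minus SS difference for 8 of 8 channel probes, as it was for 25064 of all 28852 (86.9%). This range was 1.23 for *SLAC1*, 1.18 for *ALMT12*, 0.88 and 0.53 for the probes of *ALMT9*, 0.76 for *ALMT6*, 0.65 for *SLAH3*, 0.35 for *ALMT4* and 0.16 for *SLAH2*. The order of the replicate numbers was not the same for all members. In both groups, *SLAC1* was highest in replicate 2, *ALMT12* was lowest in replicate 2 and *ALMT6* was highest in replicate 3. The groups did not overlap at 0 of 8 channel probes, against 2528 of all probes (8.76%).

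Over the 7 tested genes, at their brighter probe, the median log2 difference was 0.005 and the values ran from -0.38 to 0.28, beside a median of 0.009 over the 18001 genes tested. *SLAH2* is among the 7 through its SS signal alone.

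**Figure D3:**
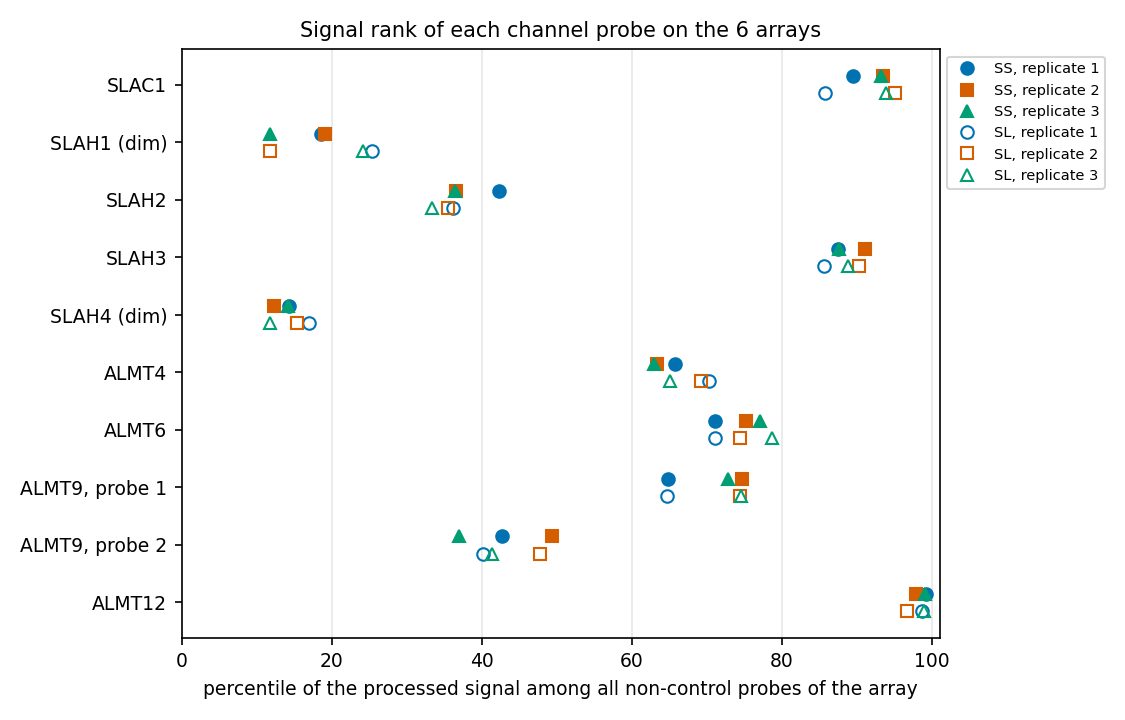
Percentile of each channel probe by processed signal among all 43603 probes of its array (horizontal axis, 0 to 100, highest signal at the right), filled for SS and open for SL, with a symbol for each replicate number. *ALMT12* stays between 96.7 and 99.2 on all arrays, *SLAC1* between 85.7 and 95.1 and *SLAH3* between 85.6 and 91.1.

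The rank of a probe within its own array needs no normalization between arrays. Probes differ in how well they bind, so that a rank orders the arrays for 1 probe and not the transcripts of different genes. The probe of *ALMT12* ranked 368, 975 and 429 from the top in SS and 579, 1429 and 502 in SL, with a mean percentile of 98.6 in SS and 98.1 in SL. It was lower in SL in each pair, by less than replicate 2 lay below the other replicates of its group. That of *SLAC1* ranked 4574, 2871 and 2967 in SS and 6226, 2117 and 2699 in SL, with mean percentiles of 92.0 and 91.6. *SLAH3* had mean percentiles of 88.7 and 88.2.

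For the vacuolar channels, the mean percentile was 74.4 in SS and 74.7 in SL for *ALMT6*, 70.8 and 71.2 for the brighter probe of *ALMT9*, and 43.0 and 43.1 for its other probe. That of *ALMT4* was 65.8, 63.3 and 62.9 in SS and 70.2, 69.2 and 65.1 in SL, higher in SL in each pair, with means of 64.0 and 68.1. *SLAH2* was at 42.3, 36.5 and 36.4 in SS and 36.1, 35.5 and 33.3 in SL, lower in SL in each pair. The dim probes of *SLAH1* and *SLAH4* lay between 11.7 and 25.3 and between 11.7 and 17.0. The median over the 7 tested genes of the SL minus SS difference was -0.48 percentile points, with *SLAH2* among them through its SS signal alone.

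Other *ALMT* genes, channel regulators and other anion transporters gave 3 calls among 33 tested genes with the block. All 3 were lower in SL, and 0 were called without the block. Over all 18001 tested genes, at their brightest probe, 839 (4.66%) were called with the block, 561 (3.12%) lower and 278 higher. The 3 calls depended on the setting, as AT1G68600 was called in 4, AT3G01490 in 3 and AT1G47530 in 4 of the 9 distinct settings with the block, and none of them with the processed signal or with normexp scaled to the 75th percentile. Of the 10 other *ALMT* loci, 9 had a probe and 1 was tested, AT1G68600. Its signal was 2837, 1183 and 3350 in SS and 1610, 809.3 and 2188 in SL, so that replicate 2 was again the lowest of both groups and the groups overlapped. The log2 difference was -0.66 (SE 0.50, and 0.09 with the block, adjusted p from *limma* 0.9997 and 0.0233). At a second probe it was -0.33 (adjusted p from *limma* with the block 0.106), and at the first the adjusted p with the block became 0.103 when the pair of replicate 1 was left out and 0.151 when that of replicate 2 was.

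Of 22 genes for kinases, phosphatases and other regulators of the channels, 20 were tested. Their median log2 difference was 0.069, with 3 lower and 6 higher in SL in all 3 pairs (4395 and 4421 of all 18001 tested genes). With the block, 1 was called lower and 0 higher, AT3G01490 at -0.48 (SE 0.52, and 0.09 with the block, adjusted p from *limma* with the block 0.0409). Its signal was 5456, 2125 and 6331 in SS and 3753, 1659 and 4350 in SL, and the call was lost without the pair of replicate 1 (adjusted p 0.174) or 2 (0.179). *MPK12*, a mitogen-activated protein kinase gene of guard cells, had a log2 difference of -0.41 (adjusted p from *limma* with the block 0.0679). *CPK6*, a calcium-dependent kinase that phosphorylates SLAC1, was at 0.38 (adjusted p from *limma* with the block 0.084), and *CIPK23*, whose kinase activates SLAC1 and SLAH3, at 0.39 (adjusted p from *limma* with the block 0.117, falling to 0.0481 when the pair of replicate 3 was left out). Without that pair, 2459 of the 28852 probes were called. *CPK6* turned to -0.12 in the fit without the block and without SS replicate 1, which leaves the replicate numbers unbalanced between the groups.

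Of 13 genes for other anion transporters, 12 were tested, with a median log2 difference of -0.04. In all 3 pairs, 3 were lower and 3 higher in SL (4395 and 4421 of all 18001 tested genes). AT1G47530 was the 1 gene called with the block, at -0.56 (SE 0.34, and 0.10 with the block, adjusted p from *limma* with the block 0.0406). Its signal was 2990, 3427 and 5551 in SS and 1774, 2616 and 3835 in SL, with overlapping groups. At its second probe the difference was -0.42 (adjusted p from *limma* with the block 0.0521), and the call at the first was lost without the pair of replicate 1 (adjusted p 0.161) or 2 (0.17). *ABCB14*, a malate importer of guard cells, was at -0.54 (adjusted p from *limma* with the block 0.108), and the chloride channel family genes *CLCe* and *CLCd* at -0.23 and -0.20 (0.183 and 0.343).

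**Figure D4:**
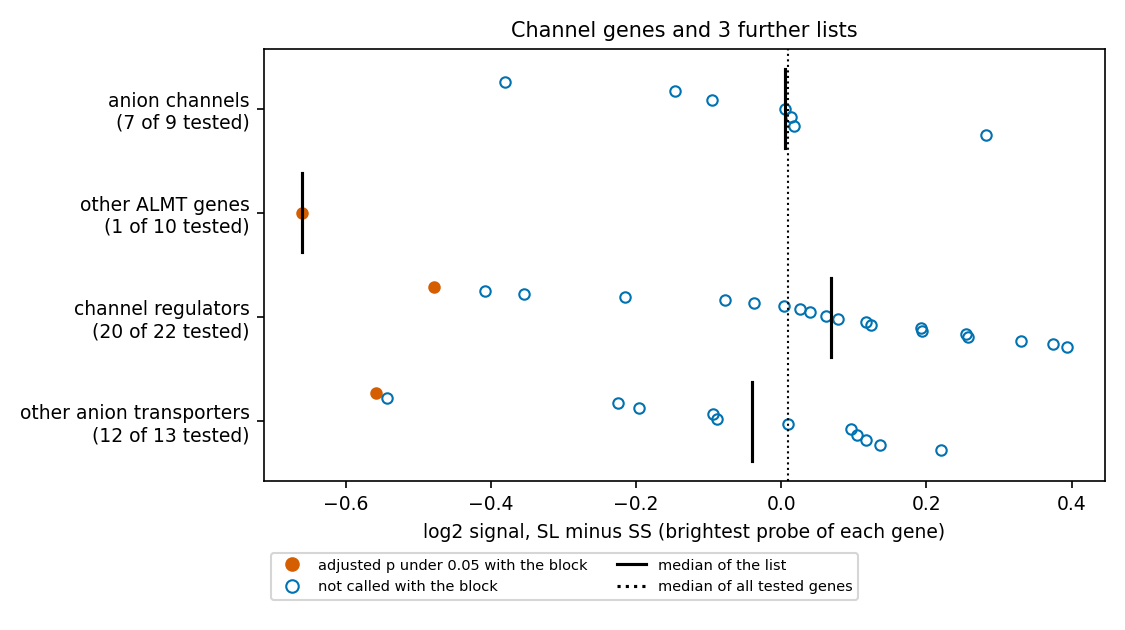
Log2 difference, SL minus SS, at the brightest probe of each tested gene of the channel list and of 3 further lists, with filled points for genes called with the block, a line at each list's median and a dotted line at the median of all tested genes (0.009). The 7 channel genes lie between -0.38 and 0.28, and the 3 filled points are AT1G68600, AT3G01490 and AT1G47530.

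The genes most like *SLAC1* and *ALMT12* over the 6 arrays were sought by the root mean square difference of log2 signals, each gene centred on its own mean, among 18000 other genes. Closest to *SLAC1* were AT1G54460 (0.08), *ATSRL1* (AT5G37370, 0.138) and *ATB' ALPHA* (AT5G03470, 0.143), against a median of 0.607 over all genes. AT1G54460 had 456.9, 887.7 and 807.7 in SS and 394.6, 1111 and 953.2 in SL, with replicate 1 lowest in both groups as for *SLAC1*. Closest to *ALMT12* were AT1G68220 (0.086), AT4G09640 (0.089) and AT5G22210 (0.092), against a median of 0.613. AT1G68220 had 880.4, 383.4 and 780.1 in SS and 592.3, 294.7 and 602.6 in SL, with replicate 2 lowest in both groups as for *ALMT12*. These likenesses rest on 6 arrays with 3 replicate numbers, and the genes shared the arrays and their normalization. The genes were picked as the closest of 18000 on these same arrays, so a shared order of the replicates follows from the choice. The median over all genes is no measure of how unusual the smallest distances are.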

How the data were processed

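The authors hybridized RNA of 3 SS and 3 SL samples to Agilent Arabidopsis oligo arrays in 1 colour. Spots were read with Feature Extraction 11.5.1.1. Each deposited file gives, per spot, the intensity as the median over its pixels, the local background and a processed signal with background subtracted. No normalization between arrays had been applied. The values of the deposited series matrix equal this processed signal.

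Median intensities were corrected with normexp (offset 50), converted to log2 and quantile normalized across the 6 arrays, with *limma* 3.58.1 in R 4.3.3. Control spots, and between 3 and 7 outlier spots per array, were left out. Probes that were well above background in every array of SS, of SL or of both (28852 of 43603) were tested with Benjamini-Hochberg adjustment. Where a gene had several probes, its brightest one stands for it. Of all probes, 34348 (78.8%) were matched to a gene through a RefSeq table. The table is of another assembly than the array files name, so no coordinates are given. The name of *ALMT4* is not in that table. The number of arrays limits the precision. The fit was tested on simulated data.

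The main fit had no block, since the paper names two-sided Student's t-tests and no pairing. The replicate numbers were taken to pair the samples. Deviations of same-numbered arrays from their group means correlated at 0.71, 0.855 and 0.739, against -0.58 to -0.161 for other SS and SL arrays. What same-numbered samples shared was not tested. Signal ranks used the processed signal.

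All 9 channel genes are named. From each of 3 further lists, at most 4 genes with the smallest p in the blocked fit are named, along with the 3 genes most like *SLAC1* and *ALMT12*. The members and lists were chosen with earlier results of these data known. Alternatives were the block, the slide as a block, other background corrections, normalizations and filters, the mean over probes, the methods' t-test and leaving out each array or pair.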

Additional observations from a re-analysis of the deposited data

How the results depend on the processing

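In the fits with the replicate block, which follows the pairing by replicate number, 1282 probes were called in place of 0. This number was 559 with the processed signal scaled to the 75th percentile, 47 with normexp so scaled, 1076 with quantile normalization within each slide, 1369 with an offset of 0, 685 with the processed signal or the series matrix values after quantile normalization, 135 when the pair of replicate 1 was left out, 0 for replicate 2 and 2459 for replicate 3. The cause was not tested. The last of these was the only setting run in which a channel probe was called, 1, that of *ALMT12*, and the block changed no other channel call. Without the block, 0 probes were called in any setting, and the methods' t-test gave 1366 of 28841 unadjusted and 0 adjusted. The number of channel genes whose groups did not overlap was 1 in place of 0 with the processed signal (*SLAH2*), scaled to the 75th percentile (9.42% of all probes) or quantile normalized (8.86%), and with normexp scaled to that percentile (*ALMT4*, 6.2%), each with or without the block. It was 2, 2 and 1 when the pair of replicate 1, 2 or 3 was left out, where 22%, 32.3% and 29.4% of all probes did not overlap, and between 0 and 2 when 1 array was (13.7% to 26.8% of all probes). This count left out *SLAH1* and *SLAH4* in every setting, also without the filter on dim signals. At the dim *SLAH4* probe the groups did not overlap, as for 8.26% of all probes without that filter.

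Of 181 values of the 7 channel genes under other settings, 161 kept their direction and side of the threshold and 19 turned direction, none of which passed the threshold. Many of these values could not turn direction. With all arrays, a block or another filter on dim signals leaves the log2 difference unchanged, as does the mean over probes for genes with a single probe. Settings with the series matrix repeat those with the processed signal. The count of 161 is therefore no measure of robustness. With normexp scaled to the 75th percentile, with or without the block, the log2 difference turned to 0.030 for *SLAH2* and to -0.0019 for *ALMT6*. In the blocked fit without the pair of replicate 3, it turned to -0.040 for *SLAC1*, -0.074 for *ALMT6* and -0.042 for *ALMT9*, and without that of replicate 2 to -0.17 for *SLAC1*. In the blocked fits without a pair, *ALMT12* was between -0.49 and -0.32 and *CPK6* between 0.28 and 0.43. The fits without 1 array had no block and left the replicate numbers unbalanced between the groups. Differences between replicates therefore enter their values. Leaving out 1 array in turn, the log2 difference ranged from -0.32 to 0.49 for *SLAC1* and from -0.26 to 0.11 for *SLAH3*. It ranged from -0.21 to 0.21 for *ALMT6*, from -0.23 to 0.28 for *ALMT9* and from -0.75 to 0.031 for *ALMT12*. For *CPK6* it ranged from -0.12 to 0.91. The median over the channel genes then ranged from -0.18 to 0.20, and the median shift in signal rank over the 7 tested genes from -1.38 to 2.09 percentile points. An alternative chosen after seeing the data, ranking by median pixel intensity, gave -0.48 points, as the processed signal did. For *SLAH1*, *SLAH2* and *SLAH4*, signal over background limits what can be measured.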
